A study of Arabidopsis thaliana with 10 samples.

Results

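The comparison described here sets vegetative shoot apices of Arabidopsis thaliana plants carrying 35S:miR-3TCP against apices of unaltered Col plants. It rests on 4 of the series' 10 arrays, 2 labelled miR-3TCP and 2 labelled Col, chosen by their titles. Both groups have Col as ecotype, both were sampled at 14 DAS (the age as the labels write it), and both grew at 20 °C on soil in short days with 10 h of light. The miR-3TCP plants overexpress an artificial microRNA directed at TCP5, TCP13 and TCP17, driven by the 35S promoter, which is active in most plant tissues. The labels do not say how many transformed lines or plants an array stands for. Nor do they say that the arrays of a group were grown apart. Unless a fit to fewer arrays is named, p-values here reflect the spread between replicate arrays pooled over all 10 arrays of the series. That spread could be technical. Where other groups are cited, miR319b means 35S:319b plants at 17 DAS, whose microRNA targets TCP2, TCP3, TCP4, TCP10 and TCP24, octa means the plants labelled so at 18 DAS, taken here as plants with both microRNAs together, and BLS>>TCP4 means plants expressing TCP4 from a leaf-specific promoter, at 14 DAS and in the Ler ecotype.

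TCP5, TCP13 and TCP17 belong to the CIN class of TCP transcription factors, which restrain cell proliferation and promote differentiation as a leaf matures from its tip to its base. The other CIN members are the targets of the natural microRNA miR319. An artificial microRNA is a small RNA redesigned to guide cleavage of chosen transcripts, so that several related genes can be lowered at the same time. The comparison addressed what the TCP5, TCP13 and TCP17 group contributes on its own. The 8 CIN-TCP genes were without a named probe set in the annotation used, so the lowering of the targets could not be checked. In bulk apices, fewer cells of a type and less RNA per cell cannot be told apart.

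Each value is the MAS5 signal of a probe set, the set of short oligonucleotides that reports on a transcript, on a linear scale, and the arrays all have a median of 50. Mean signals over all 22810 probe sets were 151 and 156 on the Col arrays and 151 and 153 on the miR-3TCP arrays. Of 67 markers of 8 tissue and cell types, 14 had a named probe set. In both groups the leaf markers were bright, with RCA between 2787 and 2992 over the 4 arrays, and the leaf primordium gene YAB3 lay between 308 and 389. The stem cell gene CLV3 lay between 2.34 and 7.26 and the meristem gene UFO between 0.954 and 2.34, both too dim to be tested, so the meristem within these apices was not visible in named markers. The root marker PYK10 lay between 1828 and 2032, and no vascular or floral marker was named. None of the 11 markers that were tested had an unadjusted p under 0.05 between the groups.

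The arrays of the different groups were about as alike as replicates. Over 13648 tested probe sets, log2 differences had a standard deviation of 0.272 between the Col arrays and 0.243 between the miR-3TCP arrays. Across the groups it was 0.261, 0.320, 0.277 and 0.228 for the 4 possible pairs. The smallest of these, between Col replicate 2 and miR-3TCP replicate 2, lay below both replicate pairs, and 2 of the 4, those of 0.320 and 0.277, lay above both. Those 2 pairs join arrays of different replicate number, whereas the pairs at 0.261 and 0.228 join arrays of the same number.

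A single probe set passed the test in the model that treats the 4 arrays as unpaired, a call rate of 0.00733%. It reported QQS (AT3G30720), an orphan gene, found only in Arabidopsis thaliana, whose product influences how leaves divide carbon between starch and protein. QQS signals were 805 and 677 in Col and 1.42 and 7.77 in miR-3TCP. The groups did not overlap, and both miR-3TCP arrays were near the bottom of the scale. QQS fell by 5.21 ± 0.19 (SE) on the log2(signal + 16) scale, with a 95% interval from -5.63 to -4.79 and an adjusted p of 1.53e-06 by limma with Benjamini-Hochberg adjustment. Because the miR-3TCP signals lie below the added 16, the size depends on that constant. The log2 change was -7.32 with 1 added and -3.55 with 64 added, both outside the interval, and QQS was called with each. No like loss of signal was seen in the named and tested genes nearest to QQS on chromosome 3, and closer genes had no named and tested probe set. The 10 nearest named and tested genes, 5 on each side, had log2 changes between -0.15 and 0.33, and 0 of them had an unadjusted p under 0.05 by limma, and the closest of them lay 9 protein-coding genes before and 37 after it. QQS has 1 probe set, so a second measurement of it was not at hand.

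QQS was also dim in every other altered group. Its signals were 20.9 and 21.1 in miR319b, 11.6 and 12.5 in octa, and 5.66 and 1.18 in BLS>>TCP4. The log2 changes against the same Col arrays were -4.35 in miR319b, where 4.02% of probe sets were called, and -4.75 in octa, where 1.82% were. These comparisons share the Col arrays with the one described here, so they do not repeat it. The 2 Col arrays alone were high, so an effect of the transgenes and a property of the Col samples cannot be told apart here.

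**Figure D1:**
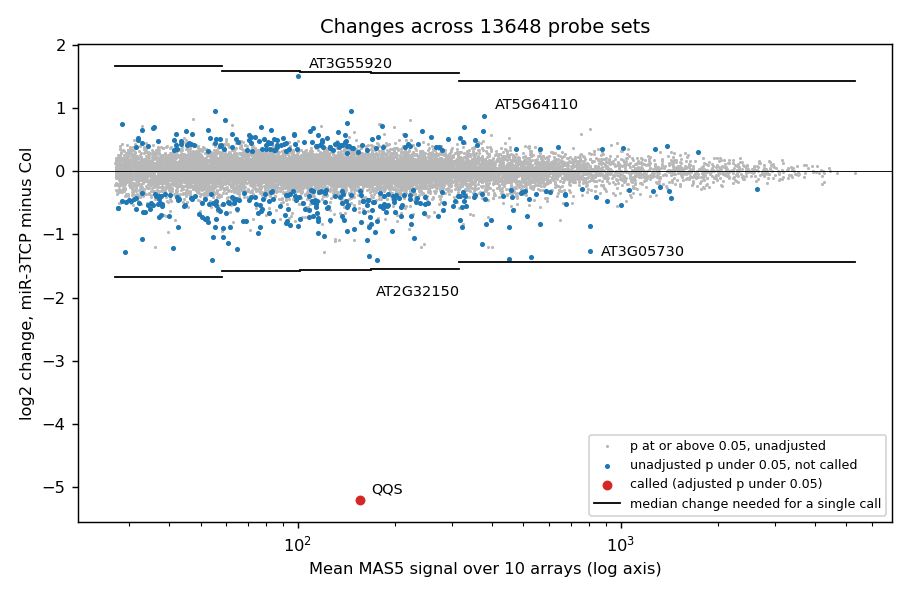
Each point is 1 of the 13648 probe sets tested. The x axis is its mean MAS5 signal over all 10 arrays (log axis), and the y axis is its log2 change, miR-3TCP minus Col. Black lines give, for each of 5 equal bins of probe sets by signal, the median change that a probe set changing alone would have needed to be called (1.43 to 1.67). QQS at -5.21 lies far below these lines, and no other point lies below -1.5.

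Apart from QQS the differences were small. The median log2 change over all tested probe sets was 0.00266, and the middle of the distribution, from the 25th to the 75th percentile, ran from -0.11 to 0.11. A share of 97.7% had a log2 change smaller than 0.5 in size. The low tail was longer than the high one. Differences of at least 0.5 were found for 252 probe sets lower in miR-3TCP and 65 higher, and differences of at least 1 for 28 lower and 1 higher. The 1st percentile was -0.64 and the 99th was 0.43. In the comparison of octa with miR319b, the other pair of groups that differs by miR-3TCP, the standard deviation of the log2 changes was 0.255, against 0.204 here.

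The arrays, and the spread shared over all 10 of them in the model, set limits on what could have been seen. The 95% interval of a log2 change had a median half-width of 0.379, a fold of 1.3, and 90% of half-widths fell between 0.285 and 0.675. The median half-width was 0.310 with only the arrays of the compared groups and 0.328 without the BLS>>TCP4 arrays. All limits that follow are those of the fit to all 10 arrays. For 13021 probe sets (95.4%) the whole interval lay within -1 to 1, so a doubling or a halving on this scale lay outside it. For 9096 (66.6%) it lay within -0.58 to 0.58. The intervals of the remaining 627 probe sets reached at least 1 in size, and for these a change of that size could not be set aside. A call asks for more than an interval that leaves out 0. A probe set changing alone among 13648 needed a log2 change of 1.56 at the median standard error of 0.17, a fold of 2.96, and a change of 1 would have been enough for only 134 of them. A change of 2 would have been enough for 80.8%. Changes in many genes together would have needed less, since the adjustment eases as more probe sets pass.

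The limits varied little with brightness. In the dimmest of 5 equal bins, with mean signals from 27.2 to 58.1, the median half-width was 0.405 and a lone call needed 1.67. In the brightest bin, from 316 to 5332, these were 0.347 and 1.43. Because 16 was added to each signal before the logarithm, changes of dim transcripts are understated, and the 9098 probe sets below a mean of 27.2 were not tested.

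**Figure D2:**
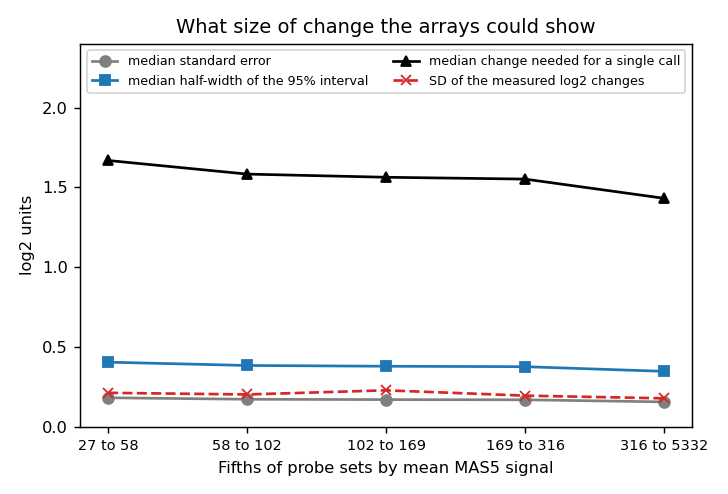
The x axis gives 5 equal bins of the tested probe sets by mean MAS5 signal, and the y axis is in log2 units. Black triangles, the median change needed for a lone call, fall from 1.67 to 1.43. Blue squares, the median half-width of the 95% interval, fall from 0.405 to 0.347, and red crosses, the spread of the changes measured between miR-3TCP and Col, lie just above the grey circles, the median standard error.

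Without adjustment, 401 probe sets (2.94%) had a limma p under 0.05, of which 139 (1.02%) were higher and 262 (1.92%) lower in miR-3TCP. The p threshold alone lets through a share of 0.05 when no probe set differs, so 2.94% was no excess in this model. This model shares 1 estimate of spread over all 10 arrays. The count was 677 without the BLS>>TCP4 arrays, a share just under 0.05. It was 989 with the 4 compared arrays alone, a share above 0.05. Whether there was an excess therefore depends on which arrays give the spread. In both of these fits QQS was the 1 probe set called. The groups did not overlap for 38% of all probe sets (18.6% higher and 19.3% lower in miR-3TCP), so absence of overlap in a gene named below says little by itself. The genes that follow were not called unless stated. They are described as leaning, meaning that the unadjusted p was under 0.05 and the adjusted p above it.

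The gene leaning most to the higher side was AT3G55920, which encodes a cyclophilin, a peptidyl-prolyl isomerase that assists protein folding. Its signals were 26.0 and 30.5 in Col and 109 and 110 in miR-3TCP. The groups were well apart, and the miR-3TCP arrays were nearly equal. The log2 change was 1.51 ± 0.19, with an interval from 1.1 to 1.93 and a limma adjusted p of 0.0758. Over the alternatives without pairing of arrays the adjusted p ran from 0.0335 without octa replicate 1 to 0.9996 without Col replicate 1. It was 0.0336 without octa replicate 2, 0.0390 with a pseudocount of 1 and 0.0487 without an intensity trend. The log2 change stayed positive in all of them. It also lay above Col in miR319b (114 and 132), octa (119 and 77.8) and BLS>>TCP4 (127 and 156), again against the same Col arrays. Of 5 cyclophilin genes tested, 2 leaned higher, against 1.02% of all probe sets. AT3G55920 itself is 1 of the 2, and the symbol families were redefined after the files were read, so the count is no evidence of a family trend. The second was SQN, or cyclophilin 40, which acts with the microRNA effector AGO1 in the timing of the juvenile leaf phase. SQN had 18.5 and 25.1 in Col and 37.0 and 36.2 in miR-3TCP, a log2 change of 0.48 ± 0.15 with an unadjusted p of 0.00824 and an adjusted p of 1. SQN too lay above Col in miR319b (39.3 and 36.5), octa (41.8 and 35.3) and BLS>>TCP4 (86.5 and 80.2). CYP71 (0.16), AT2G21130 (0.05) and CYP59 (0.01) did not lean.

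On the lower side, the 3 genes named by rule with the smallest p after QQS were AT2G43590, AT3G05730 and AT2G27830. AT3G05730, a gene of a small defensin-like protein, had 682 and 608 in Col and 305 and 221 in miR-3TCP. The log2 change was -1.26 ± 0.19, with an interval from -1.69 to -0.83 and a limma adjusted p of 0.179. AT2G43590, with no name in the annotation used, had 37.5 and 25.9 in Col and 3.18 and 5.61 in miR-3TCP (-1.22 ± 0.17, adjusted p = 0.107). AT2G27830, also unnamed there, had 140 and 126 against 67.6 and 66.2 (-0.85 ± 0.16, adjusted p = 0.592). In all 3 the groups were separated by more than the gap between replicates.

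AT3G05730 and AT2G43590 had in common an order over the whole series. AT3G05730 was lower still in miR319b (47.1 and 34.3) and octa (21.0 and 22.8) and far higher in BLS>>TCP4 (2702 and 3398). AT2G43590 had signals of 1.21 and 0.662 in miR319b, 0.673 and 1.11 in octa, and 157 and 179 in BLS>>TCP4. For AT3G05730, miR-3TCP lay between Col and the groups with miR319b. AT2G43590 had the same order, but its signals in miR-3TCP, miR319b and octa were all near the bottom of the scale, so the order among those groups is uncertain. Age differs among these groups, and BLS>>TCP4 is in Ler, so genotype cannot be told apart from age or accession in that order.

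**Figure D3:**
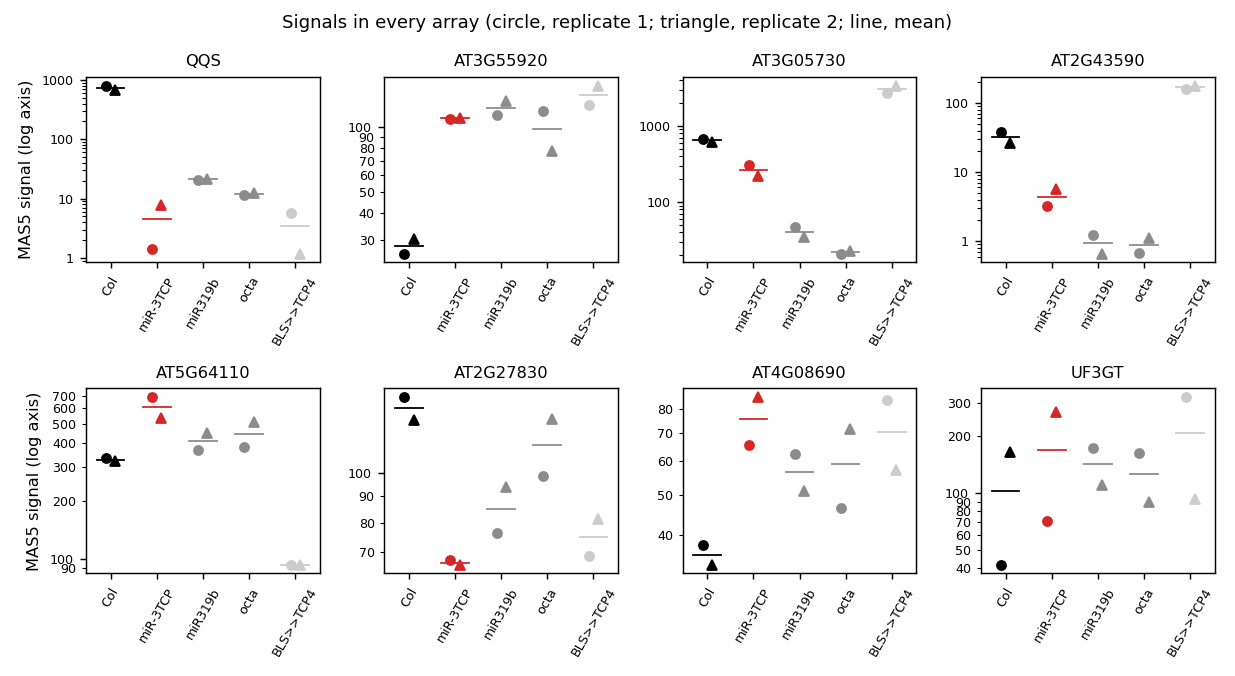
Each panel shows 1 gene, with MAS5 signal on a log axis and the 5 groups on the x axis. Circles are replicate 1, triangles replicate 2 and lines the mean of 2 arrays. QQS is high only in Col (805 and 677), AT3G55920 is low only in Col (26.0 and 30.5), and UF3GT differs more between replicates of Col (41.7 and 164) than between the means of Col and miR-3TCP.

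The rule for named genes took 15 genes leaning higher, with log2 changes from 0.57 to 1.51. In 12 of them both miR319b arrays also lay above both Col arrays, and in 11 both octa arrays did. The share of all probe sets that did so was not computed. These genes were picked partly because their Col arrays lay below the miR-3TCP arrays, and the same Col arrays serve in each case. The counts therefore do not repeat the comparison and by themselves say nothing of a shared response. Whether a property of the Col samples set these genes apart was not tested. After AT3G55920 came AT5G64110, with 331 and 320 in Col against 689 and 536 in miR-3TCP (0.87 ± 0.18, unadjusted p = 0.000774), and AT4G08690, with 37.9 and 34.0 against 65.6 and 85.5 (0.81 ± 0.21). The annotation used gives neither a name. UNG, a uracil DNA glycosylase that removes uracil from DNA, had 21.8 and 24.1 against 46.0 and 43.5 (0.64 ± 0.17, unadjusted p = 0.00334). PPR336, a member of the pentatricopeptide repeat family of organelle RNA-binding proteins, had 0.57. The others were AT5G48240 (0.76), AT2G44820 (0.71), AT5G23760 (0.71), AT5G37130 (0.65), AT3G57490 (0.64), AT4G30150 (0.63), AT2G02410 (0.59), AT5G62440 (0.59), AT4G31790 (0.57) and AT1G60080 (0.57). AT5G62440 and AT2G02410 each have another probe set, and those had smaller changes of 0.26 and 0.08 with unadjusted p of 0.275 and 0.682 by limma.

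The 15 falls by the same rule ran from QQS to a log2 change of -0.85. In 13 of them both miR319b arrays also lay below both Col arrays, and in 8 both octa arrays did, again against the same Col arrays. The share of all probe sets that did so was not computed, and these genes were picked partly because their Col arrays lay high. The counts by themselves therefore say nothing of a shared response. Here too, a property of the Col samples was not tested apart from miR-3TCP. The largest after QQS was AT2G32150, with 330 and 237 in Col against 119 and 84.7 in miR-3TCP. Its change of -1.34 had a wide interval, from -2.57 to -0.11, because replicates of other groups differed (78.9 and 245 in octa, 76.5 and 305 in BLS>>TCP4). AT1G23390 (-1.15), AT3G10020 (-1.09), AT2G20670 (-0.97), AT2G24550 (-0.94) and AT5G19120 (-0.88) were of the same kind, their lower octa replicate being replicate 1 in each. EXO, the EXORDIUM gene of brassinosteroid-dependent leaf cell expansion, had 412 and 276 against 202 and 152 (-0.88 ± 0.30, unadjusted p = 0.0144). ATPMEPCRB, which encodes a pectin methylesterase of the cell wall, had 142 and 65.3 against 52.6 and 32.1 (-0.98 ± 0.38), its Col replicates differing about as much as the groups did. The remaining members were AT3G16670 (-0.97), AT3G15760 (-0.89) and AT1G02660 (-0.89).

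Of the leaning probe sets with 1 named gene, 25 carried a symbol other than a locus number, 10 higher and 15 lower, a set chosen after its values were seen. On the lower side, FER (FERONIA), a receptor kinase of cell growth, had 575 and 488 in Col against 393 and 394 in miR-3TCP (-0.41, unadjusted p = 0.00994). RAPTOR1, a partner of the TOR growth kinase, had 238 and 261 against 171 and 177 (-0.48), and SLY1, the F-box protein through which gibberellin removes DELLA repressors, had 92.6 and 108 against 78.9 and 75.5 (-0.32). WES1, an auxin-conjugating enzyme gene, had -0.52 and PPDK, the gene of pyruvate orthophosphate dikinase, -0.39. On the higher side were HBT (0.30), a subunit of the anaphase-promoting complex, PAC (0.39), needed for chloroplast development, OTP81 (0.45), an organelle RNA editing factor, and NRPB6B (0.36), an RNA polymerase subunit. All of these had an adjusted p of 1 by limma, and over all leaning probe sets 261 were lower and 139 higher.

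Of 797 genes and 9 symbol families in 38 lists, 135 probe sets were tested, in 36 of the lists. QQS, in the starch and sugar list, was the 1 call. The other tested members of that list had signals close to Col, with SBE2.2, a starch branching enzyme gene, at 0.20, DPE1 of starch breakdown at -0.03, APL3 at -0.13 and SWEET11 at -0.17. None of these 4 leaned, beside the fall of QQS.

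Among genes of leaf form, all 6 tested members had a positive log2 change, from 0.01 to 0.44, and 0 leaned (median 0.18, against 0.00266 for all probe sets). PHV, a leaf polarity gene of the class III homeodomain family, had 272 and 286 in Col against 429 and 341 in miR-3TCP (0.44 ± 0.20, unadjusted p = 0.0549). NUB, a relative of JAG in lateral organ growth, had 36.0 and 28.9 against 49.5 and 39.6 (0.32 ± 0.17). The changes of JAG (0.09), YAB3 (0.06) and YAB5 (0.01) were small. Leaving out miR-3TCP replicate 1 brought the list median to 0.02.

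Of 16 probe sets tested in the 6 hormone lists, 2 leaned (12.5%, against 2.94% of all probe sets), and none was called. In the auxin response list WES1 leaned lower, with 926 and 645 against 628 and 453, and IAA18 (0.08), GH3.3 (0.09) and IAA30 (0.04) were close to Col. Of auxin synthesis genes, YUC4 had 0.36 (unadjusted p = 0.0828) and YUC2 -0.24. The cytokinin response regulators RR16 and ARR15 had 0.18 and 0.00145, and the gibberellin receptor genes GID1A and GID1B had -0.17 and 0.10. COR47, a dehydrin gene induced by cold and abscisic acid, leaned lower with 533 and 353 against 214 and 289 (-0.77 ± 0.24, unadjusted p = 0.0106), while EIN3 of ethylene signalling had -0.20. OPCL1 of jasmonate synthesis, the class I gene TCP15 and the flowering gene AGL24 had -0.44, -0.20 and 0.38, of which AGL24 leaned (unadjusted p = 0.0308).

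The tested genes of proliferation and of leaf maturation, the processes that CIN-TCP factors separate, were close to Col in both directions. They were a part of their lists, with 4 probe sets tested for 44 mitotic genes, 7 for 44 photosynthesis genes and 6 for 20 chlorophyll synthesis genes. The mitotic genes AUR1 (0.09), AUR2 (0.01), AUR3 (-0.17) and PRL (0.25) did not lean, nor did any of 6 histone genes, with HTB2 at 0.34 and HTB1 at 0.21. Of 7 photosynthesis genes 0 leaned and 5 had a negative change (median -0.06). PSBY had 2457 and 2515 in Col against 2092 and 2261 in miR-3TCP (-0.19 ± 0.10), and LHCB4.1 had 4094 and 3922 against 3480 and 3481 (-0.20 ± 0.12). These are bright probe sets with narrow errors, and their intervals left out a change of 1. Of 6 chlorophyll synthesis genes 0 leaned, with a median of 0.09. The stomatal genes FMA (-0.16), STOMAGEN (-0.06) and SPCH (-0.02) and the trichome genes GIS (0.30) and SIM (-0.06) did not lean either.

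**Figure D4:**
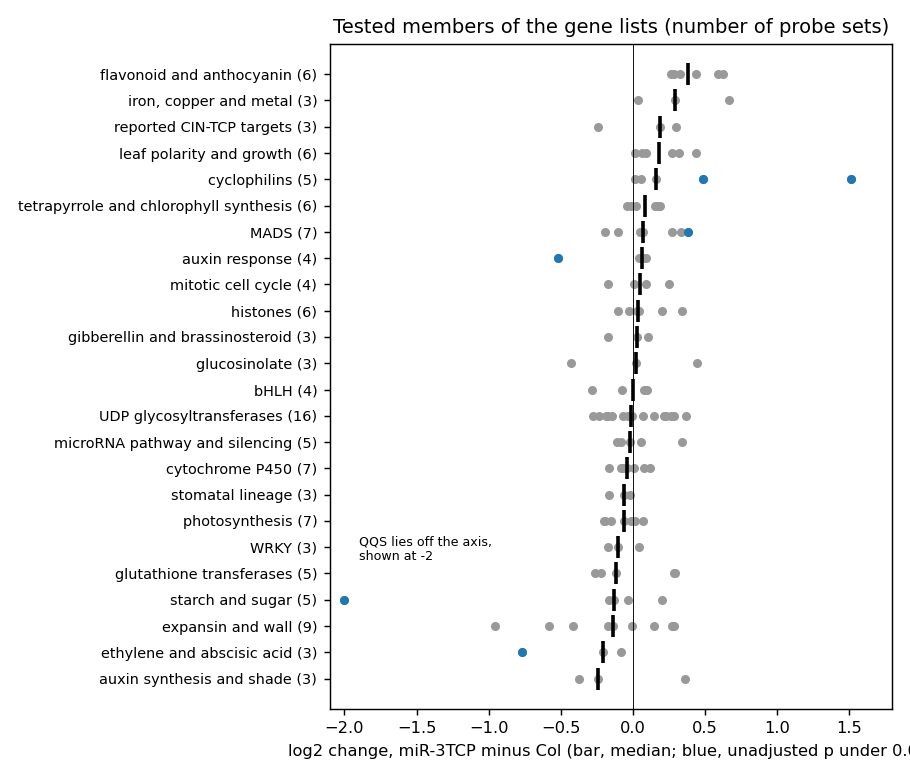
Each row is a gene list with at least 3 tested probe sets (their number in brackets), and the x axis is the log2 change, miR-3TCP minus Col. Points are members, blue where the unadjusted p was under 0.05, and the bar is the median. Medians run from -0.24 to 0.39, and QQS, at -5.21, is drawn at -2.

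Among lists with at least 3 tested probe sets, flavonoid and anthocyanin genes had the highest median, 0.39, with all 6 positive, and were also among the least certain. UF3GT, an anthocyanin glycosyltransferase gene, had 41.7 and 164 in Col and 71.4 and 267 in miR-3TCP (0.63 ± 0.69, unadjusted p = 0.385). DFR, the enzyme at the entry to anthocyanins, had 185 and 458 against 252 and 636. In both genes replicate 2 was the higher array of each group, and replicates differed by more than the groups did. BCAT4 of glucosinolate synthesis had a like pattern, with 242 and 887 against 364 and 1115. The flavonoid median was -0.06 without Col replicate 1 and -0.15 without miR-3TCP replicate 2, so its sign rested on single arrays. UGT78D1, a flavonol glycosyltransferase gene, was the most even member, with 205 and 207 against 241 and 259 (0.26 ± 0.15, unadjusted p = 0.112).

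Of 9 expansin and wall genes tested, 3 had a positive change. EXLA2 had 123 and 63.4 against 64.1 and 45.2 (-0.58 ± 0.31), EXLA1 -0.96 ± 0.65 and XTH16 0.29, and none leaned. STZ, a zinc finger gene of stress responses, had 153 and 39.0 in Col against 43.4 and 26.7 in miR-3TCP (-0.94 ± 0.58), so that 1 Col array set the difference. MT1C, a metallothionein gene, had 252 and 238 against 327 and 482 (0.66 ± 0.33, unadjusted p = 0.0705), and the IRON MAN peptide gene AT1G47400 had 0.30. Of the genes of small RNA and silencing pathways, AGO7 had 0.34 and SE 0.06, and 0 of 5 probe sets leaned.

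The same artificial microRNA can be followed in a second pair of groups that shares no array with the first, octa against miR319b (18 against 17 DAS). There 0 of 13648 probe sets were called by limma, and 1347 (9.87%) had an unadjusted p under 0.05. Across probe sets, which share arrays and so are not independent, the log2 changes of the 2 comparisons had a Pearson r of -0.03 and a Spearman rho of -0.07. The 139 probe sets that leaned higher in miR-3TCP had a median of -0.10 in octa against miR319b, with 51 positive (36.7%), against a median of -0.04 and 43.6% positive over all tested. The 262 that were lower at an unadjusted p under 0.05, QQS among them, had a median of -0.02, with 48.5% positive. The median of the lower set thus lay near that of all probe sets, and that of the higher set lay somewhat below it. At an unadjusted limma p under 0.05 in octa against miR319b, 26 of the 139 were lower and 7 higher. Of the 262, 24 were lower and 20 higher, and of all tested 980 were lower and 367 higher.

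AT3G55920, at 1.51 without miR319b, had -0.30 ± 0.19 with it. AT2G43590 could not be compared in this way, since its signals in miR319b and octa were all near the bottom of the scale. AT5G64110 had 0.87 and 0.11, UNG 0.64 and 0.04, and SQN 0.48 and 0.02. Of the 15 genes named for falls, 7 had the same sign in octa against miR319b, as did 6 of the 15 named for rises. AT3G05730 kept its sign, with -0.57 ± 0.19 (unadjusted p = 0.0139), as did EXO with -0.55 and ATPMEPCRB with -0.73. AT2G20670 (1.23) and AT5G19120 (0.95) went the other way. The genes with the smallest p between octa and miR319b, AT1G01100, AT1G52300, AT3G11500, AT2G23090 and AT5G15200, had differences from -0.83 to -0.47 there, and from -0.05 to 0.19 between miR-3TCP and Col.

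The difference between the 2 comparisons was tested as an interaction. QQS was the 1 probe set called (0.00733%), and 7.1% had an unadjusted p under 0.05. QQS had a log2 difference of 4.81 ± 0.27 and a limma adjusted p of 9.59e-05. Its change was -5.21 without miR319b and -0.40 ± 0.19 with it, where the signal was already low. With a pseudocount of 1 the interaction had 0 calls. No other probe set passed, the nearest named gene being AT3G55920 (-1.81 ± 0.26, adjusted p = 0.204), and the next, among them AT2G27830, AT3G11500 and AT3G16080, having an adjusted p of 0.527.

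**Figure D5:**
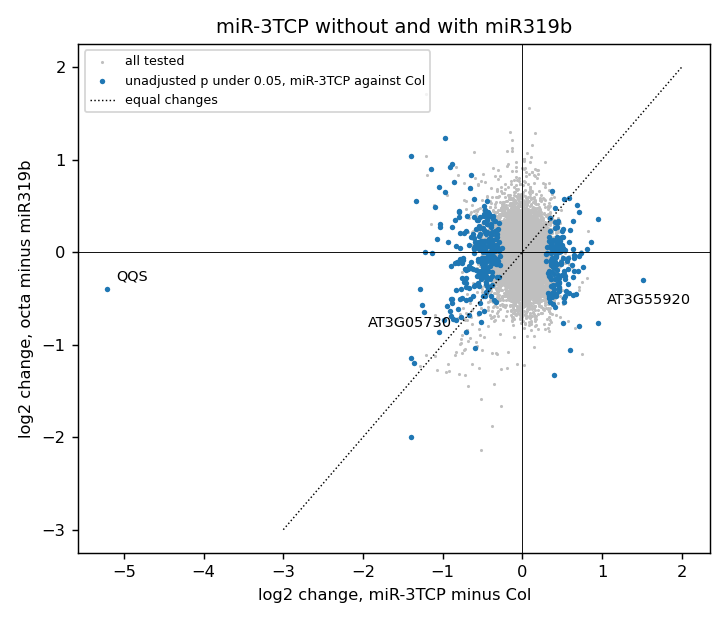
The x axis is the log2 change, miR-3TCP minus Col, and the y axis the log2 change, octa minus miR319b, for the 13648 probe sets. Blue points had an unadjusted p under 0.05 on the x axis, and the dotted line marks equal changes. The blue points spread above and below 0 on the y axis instead of following the dotted line, with QQS at -5.21 and -0.40.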

How the data were processed

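Total RNA of vegetative apices was hybridised to Affymetrix arrays, 10 in all, with 2 in each of 5 groups. The deposited values are linear intensities, for which the submitters' processing notes name MAS5. Its version and settings, and a genome build, were not given in the labels. Groups were taken from the titles. From these intensities log2(value + 16) was computed, 64 AFFX controls were removed, and 13648 of 22746 probe sets were tested, those whose mean signal reached the 40th percentile. A model with a term for each group was fitted to all 10 arrays in R 4.3.3 by limma 3.58.1, using lmFit, contrasts.fit and a trended eBayes (5 residual and 4.88 prior degrees of freedom). A call is a Benjamini-Hochberg adjusted p under 0.05 over all probe sets of a contrast. Errors of log2 changes are standard errors. The change needed for a lone call is the standard error times the t value at the threshold divided by the number of tests. An exact permutation test of 2 against 2 arrays cannot reach the threshold and was not used. The number of arrays limits the precision.

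Of the probe sets, 13513 had 1 gene in the platform annotation, 503 had several and 8730 were not listed. Symbols were updated through a RefSeq gene table of TAIR10.1, with 13436 matched. Only probe sets with 1 gene were named. The rule for naming took calls, the 15 largest rises and 15 largest falls at unadjusted p under 0.05 without overlap, the 2 members of smallest p in each list, and the 5 of smallest p in each of the other contrasts. Other list members and genes with symbols were added after their values were seen. The comparison and the lists were chosen with earlier results of these data known, and the symbol families were redefined after the files were read. The model was tested on simulated data. Alternatives tried were other pseudocounts, filters, normalizations, sets of arrays, a replicate block, no trend and leaving out each array.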

Additional observations from a re-analysis of the deposited data

Results flagged for a closer look

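QQS stood out because its difference between groups with and without miR-3TCP was itself different where miR319b was present, with an interaction of 4.81 on the log2 scale. The signals behind it were 805 and 677 in Col, 1.42 and 7.77 in miR-3TCP, 20.9 and 21.1 in miR319b, and 11.6 and 12.5 in octa. Because the signal was already low in miR319b, a further fall of like size could not have been seen there. With a pseudocount of 1 the interaction had 0 calls. Groups of 2 arrays are too small for a test of single outlying arrays.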

How the results depend on the processing

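QQS was called in every fit of miR-3TCP against Col that was run. The count of calls, 1 as reported, was 2 with a pseudocount of 1 and 4 without an intensity trend, with AT3G55920 added in both and AT2G43590 in the second, and it stayed at 1 when any array of these groups or of miR319b was left out. Without octa replicate 1 or without octa replicate 2 it was 2, with AT3G55920 added (adjusted p 0.0335 and 0.0336). The count at unadjusted p under 0.05, 401 as reported, was 751 with no filter, 239 with the filter at the 60th percentile, 989 with only the compared arrays, 677 without BLS>>TCP4, and 224 to 538 when 1 array was left out. Calls in octa against miR319b, 0 as reported, numbered 2 with a pseudocount of 1, 2 with the filter at the 60th percentile, 2 with quantile normalization and 4 without BLS>>TCP4. Calls of the interaction, 1 as reported, were 0 with a pseudocount of 1, 2 without octa replicate 1 and 1 without each other array of the 4 groups in turn.

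Replicate numbers are shared by the groups, but no label says that a number marks a shared day or batch. The deviations of same-numbered arrays correlated at 0.447 between Col and miR-3TCP and at -0.401 to 0.314 over the other pairs of groups. With the number as a replicate block over all 10 arrays, miR-3TCP against Col had 1 call and 449 at unadjusted p under 0.05. With the block in the 4 compared arrays alone, an alternative chosen after seeing the data, the calls numbered 404 (95 higher), the unadjusted count was 2161 and the median half-width was 0.244. That fit leaves 1 residual degree of freedom, and whether the numbers pair the arrays is not known, so how few genes are called depends on this choice.

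Of 1372 values of 88 named genes under alternatives, 1310 kept direction and side of the threshold, 41 became calls, 38 of them in the block fit of 4 arrays, and 21 changed sign, none of them a called gene. Fits without an octa or miR319b array were not among these values, so the 41 leave out any call made in them. ARR15 was -0.00254 with a pseudocount of 1. When 1 array was left out, values ran from -0.23 to 0.12 for LAS, -0.23 to 0.60 for RR16, -0.25 to 0.26 for ARR15, -0.053 to 0.26 for GID1B, -0.22 to 1.48 for UF3GT, -0.38 to 0.25 for SIM, -0.54 to 0.0042 for THI2.2, -0.46 to 1.34 for BCAT4, -0.031 to 0.26 for FD, -0.37 to 0.81 for COR15B, -0.056 to 0.095 for PYK10, -0.26 to 0.11 for DME, -0.17 to 0.032 for KINESIN-12B, -0.35 to 0.15 for WRKY47 and -0.075 to 0.27 for bHLH115.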

Other observations

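For genes with 1 name and more than 1 tested probe set, 81 in all, only the first pair of probe sets by identifier was compared. In 46 of these genes the pair had log2 changes of the same sign between miR-3TCP and Col. The median difference within a pair was 0.134 in size.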
